A study of Homo sapiens with 8 samples.

Results

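The genes described here are 30 listed genes of cholesterol and fatty acid synthesis that are driven by the sterol regulatory element-binding proteins (SREBP). They were taken by symbol from the raw gene counts, where all 30 were present among 20339 genes and all 30 were above the filter on low counts that left 15617 genes. RNA-seq was performed on 8 libraries, 1 per condition, from OVCAR3 and COV318, established ovarian carcinoma cell lines labelled as epithelial cells from ascites. Each line was sequenced as bulk cells, adherent in medium with serum, and as OCSC, the cancer stem cell-enriched spheres grown without attachment in a medium with B27, EGF and FGF2 for which no serum is named. OVCAR3-MGPKO was made by transient CRISPR-Cas9 editing with a pair of guides to the first exon of MGP (Matrix Gla Protein) and isolation of clones, and was compared with OVCAR3-CTR. COV318-MGP received an MGP cDNA by lentivirus, and COV318-CTR the empty vector, both with puromycin selection. Passage number was 4 in OVCAR3 and 18 in COV318. In bulk culture the basal medium differed between the lines, and that of OVCAR3 held a higher percentage of serum and added insulin. Culture medium and attachment changed together between bulk and OCSC, so their parts cannot be told apart.

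SREBPs are membrane-bound transcription factors of the endoplasmic reticulum. When sterols are low, SCAP escorts them to the Golgi, where proteases release the active part, which enters the nucleus and binds sterol regulatory elements, usually beside sites for NF-Y or Sp1. SREBP2, encoded by SREBF2, acts mainly on cholesterol synthesis, and SREBP1, encoded by SREBF1, mainly on fatty acid synthesis, while sterols and INSIG1 hold both in the endoplasmic reticulum. Cells that take up lipoprotein cholesterol from serum are known to keep these genes low, and cells deprived of it to raise them.

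Depth, as counts on genes, ranged from 12294591 to 37393919, and the 30 genes together took 0.362% to 0.648% of it. In bulk, COV318-MGP had 40393 counts of MGP where COV318-CTR had 1, and in OCSC 28694 where COV318-CTR had 0. In OVCAR3, MGP was at 0 to 2 counts in all 4 libraries, under a floor of 3, and does not check the OVCAR3 labels. The COV318-MGP libraries stood apart from COV318-CTR. Of 13 markers of ovarian carcinoma epithelium, 8 in bulk and 7 in OCSC were at or under 3 counts in COV318-MGP, with KRT7, PAX8, SOX17 and CLDN3 at 0 in both cultures, and none was in the other 6 libraries. The summed level of these markers was 2013 and 8506 normalized counts in COV318-MGP bulk and OCSC, 51092 and 19303 in COV318-CTR, 174150 and 287313 in OVCAR3-CTR, and 145222 and 229711 in OVCAR3-MGPKO. The sum was thus higher in OCSC than in bulk in both OVCAR3 populations and COV318-MGP and lower in COV318-CTR, and its part in the culture results was not tested. It does not describe each marker. In COV318-MGP OCSC most of it was KRT8 and KRT18 (983 and 4810 counts before normalization). From bulk to OCSC in OVCAR3-CTR, KRT8 went from 27136 to 101316 counts and KRT7 from 27979 to 18906. Of 6 markers chosen for HEK293T, the packaging cells, NEFL, NEFM and PAX2 were above 3 counts in COV318-MGP only (2564 and 857 counts of NEFL, 891 and 490 of NEFM, 9 and 12 of PAX2), whereas DPPA4 had 2 and 0 counts there and 19621 and 3614 in COV318-CTR. Their summed level was 1962 and 2034 in COV318-MGP, 10587 and 5400 in COV318-CTR and 311 to 577 in OVCAR3. The 8 mesothelial or fibroblast markers in the table summed to 12885 and 3347 in COV318-CTR, 564 and 1025 in COV318-MGP and 385 to 950 in OVCAR3. As a description across genes, which do not replicate one another, Pearson's r of log2 levels between COV318-MGP bulk and COV318-CTR bulk was 0.740, against 0.738 between OVCAR3-CTR bulk and COV318-CTR bulk. The log2FC values are therefore given for COV318-CTR and COV318-MGP separately, whereas the fits use both populations, and the part of these libraries' identity in the MGP comparison was not tested. In these bulk extracts, fewer cells of a kind and less RNA per cell cannot be told apart.

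Sequence upstream of the genes is shown as a description. The genes were listed as SREBP-driven, and such promoters usually hold sites for NF-Y or Sp1. Whether the letters go with the culture differences was not tested. RefSeq's promoter table (GRCh38.p14) held 26 of the 30 genes, and ACAT2, FASN, FDFT1 and SQLE had no entry. In the 250 bases before a start, on either strand, the strict sterol regulatory element TCACNCCAC was found in 1 of the 26 genes, SREBF2, and in 1.09% of all 27305 genes of the table. The shorter CACNCCAC, which is contained in it, was found in 6 (ACACA, IDI1, INSIG1, SC5D, SCD and SREBF2) and in 5.89% of all genes. The NF-Y core CCAAT was found in 20 of the 26 genes (76.9%), against 37% of all genes and 40.2% of the 15843 protein-coding genes. At least 2 copies of it were found in 13 of the 26, against 11.5% of all genes. The Sp1 core GGGCGG was found in 25 of the 26, against 62.1% of coding genes, and the E-box CACGTG in 2 of the 26, against 9.73%. These letters describe the windows and are not evidence of binding. The 5 windows below are those of a regulator, of the feedback protein INSIG1 and of 3 enzymes, at the start, the middle and the end of the sterol pathway. Capitals mark the strict sterol regulatory element or the NF-Y core on either strand, and bases within coding-gene exons are left out.
SREBF2 (chr22:41832855-41833104, plus strand): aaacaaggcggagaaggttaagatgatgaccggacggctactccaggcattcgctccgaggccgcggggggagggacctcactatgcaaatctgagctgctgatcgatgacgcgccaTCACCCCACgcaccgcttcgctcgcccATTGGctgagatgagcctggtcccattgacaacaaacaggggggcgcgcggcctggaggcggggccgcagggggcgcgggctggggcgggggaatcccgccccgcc
INSIG1 (chr7:155297628-155297775, plus strand): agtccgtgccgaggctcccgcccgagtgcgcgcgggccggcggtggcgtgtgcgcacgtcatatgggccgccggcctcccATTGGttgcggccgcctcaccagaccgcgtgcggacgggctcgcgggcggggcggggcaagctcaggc
HMGCS1 (chr5:43313513-43313662, minus strand): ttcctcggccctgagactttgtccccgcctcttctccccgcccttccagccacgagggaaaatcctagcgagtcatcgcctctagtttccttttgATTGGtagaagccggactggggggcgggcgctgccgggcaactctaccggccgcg
MSMO1 (chr4:165327419-165327666, plus strand): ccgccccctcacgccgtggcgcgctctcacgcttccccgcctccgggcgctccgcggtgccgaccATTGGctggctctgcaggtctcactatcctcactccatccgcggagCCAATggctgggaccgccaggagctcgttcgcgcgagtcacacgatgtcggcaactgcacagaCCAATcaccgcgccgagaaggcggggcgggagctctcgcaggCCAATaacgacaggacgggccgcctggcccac
DHCR7 (chr11:71448436-71448643, minus strand): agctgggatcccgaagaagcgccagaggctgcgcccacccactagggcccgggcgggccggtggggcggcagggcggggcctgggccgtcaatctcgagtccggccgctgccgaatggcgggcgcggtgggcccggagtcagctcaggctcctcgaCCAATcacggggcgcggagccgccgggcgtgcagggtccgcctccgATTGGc
In MSMO1 the NF-Y core stands 4 times, whereas SREBF2 has 1 strict element and 1 NF-Y core within a short stretch.

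The question addressed by OCSC against bulk was how the genes differ between stem-enriched spheres and adherent cells of the same population. In OVCAR3 nearly all of the sterol genes were higher in OCSC, and in COV318-CTR most of the 30 genes were lower. Log2 fold change (log2FC) is the log2 of the ratio of 2 normalized counts with 1 added, and normalized counts are counts divided by the library's size factor. In OVCAR3-CTR the 30 genes had a median log2FC of 1.09, against 0.05 over all genes, and 20 of the 30 were at least 1 higher, against 12.5% of all genes. In the library pair labelled OVCAR3-MGPKO the median was 0.61, against 0.03 over all genes, and 3 (LSS, TM7SF2 and MSMO1) were at least 1 higher, against 6.69% of all genes. The members at least 1 lower in OVCAR3 OCSC were 0 in each population, against 11.4% and 8.04% of all genes. In COV318-CTR the median was -0.45, against -0.03, and 7 were at least 1 lower, against 7.75% of all genes, and 0 at least 1 higher, against 9.43%. For COV318-MGP the median was -0.05 (-0.16 with TMM and -0.26 with CPM), against 0 over all genes, with 3 (HMGCS1, MSMO1 and FASN) at least 1 higher, against 9.02%, and 0 at least 1 lower (1 with TMM or CPM), against 7.48%.

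In both OVCAR3 populations 24 of the 30 genes were higher in OCSC, against 34.4% of all genes, and 0 were lower in both, against 28.6%. For 23 of them both OCSC libraries lay above both bulk libraries, against 24.8% of all genes, and the exception was STARD4. Both OCSC libraries lay below both bulk libraries for 0 of the 30, against 19.4%. In both COV318 populations 13 were lower in OCSC, against 24.5% of all genes, and 0 were higher in both, against 22.5%. The same 13 (ACLY, ACAT2, MVK, IDI1, FDPS, SQLE, CYP51A1, TM7SF2, HSD17B7, EBP, SC5D, DHCR7 and FADS1) were higher in both OVCAR3 and lower in both COV318 populations, against 7.9% of all genes. With TMM, CPM or within-pair scaling this count was 14, 12 and 13, with SQLE dropping out and LSS coming in under each, ACLY and CYP51A1 dropping out with CPM, and FADS2 coming in with TMM and CPM. The count is by sign alone. The 95% interval for counting error included 0 for SQLE in COV318-CTR (-0.11 to 0.08) and HSD17B7 in COV318-MGP (-0.34 to 0.03). It also did for ACLY in OVCAR3-MGPKO (-0.01 to 0.11) and COV318-MGP (-0.07 to 0.02). Both COV318 OCSC libraries lay below both COV318 bulk libraries for 3 genes (ACLY, ACAT2 and IDI1), against 7.16%, and above them for 0, against 7.77%. Higher in OCSC in all 4 populations were 0 members, against 7.93% of all genes, and lower in all 4 also 0, against 7.17%. OVCAR3-CTR bulk was the lowest of the 4 OVCAR3 libraries for 24 of the 30, against 32.6% of all genes, and it is the base of the OVCAR3-CTR comparison.

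**Figure D1:**
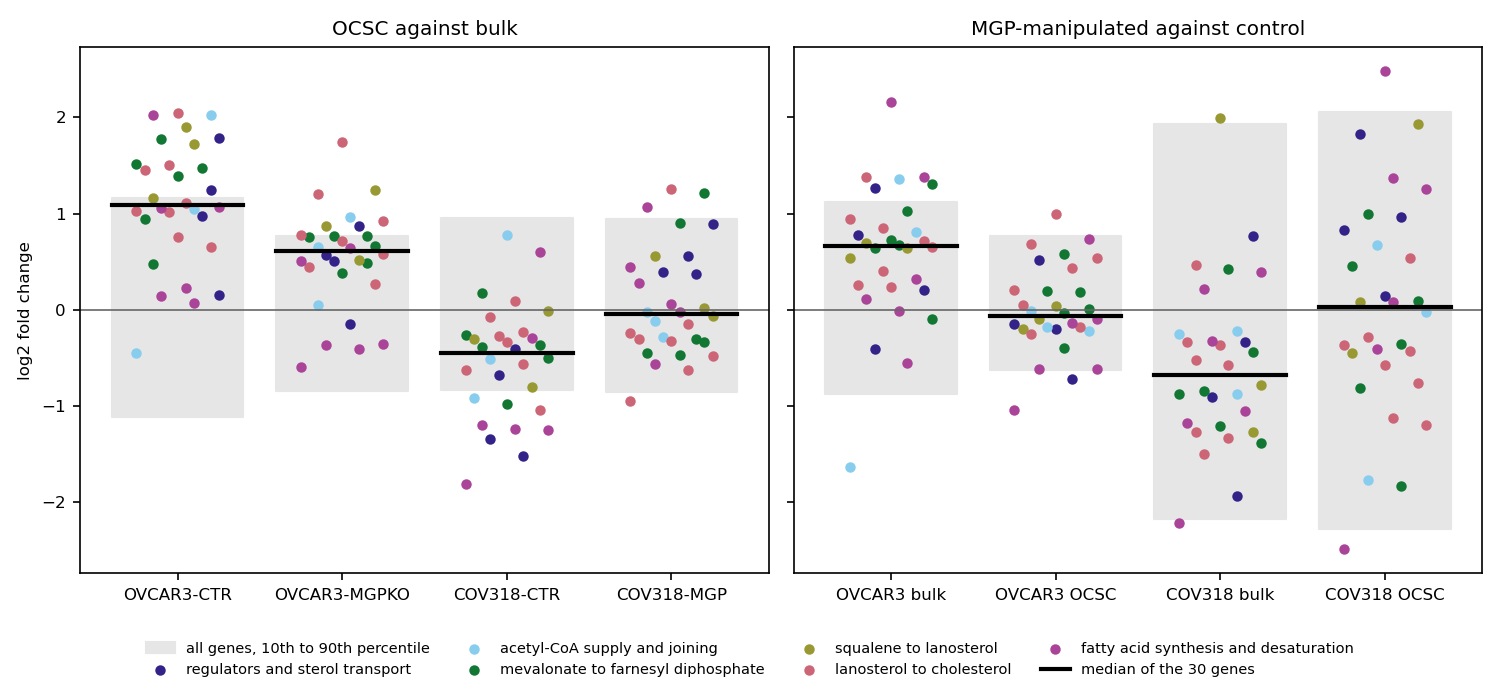
Each point is the log2FC of 1 of the 30 genes in a pair of libraries, coloured by role, black bars are the median of the 30 genes and grey boxes span the 10th to 90th percentile of all genes. In OCSC against bulk the black bar stands at 1.09 in OVCAR3-CTR and 0.61 in OVCAR3-MGPKO, and at -0.45 in COV318-CTR and -0.05 in COV318-MGP.

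Culture was tested with edgeR's quasi-likelihood test across all 15617 genes, with the 4 populations as blocks and Benjamini-Hochberg adjustment. Over the 4 populations 0 genes passed an adjusted p of 0.05, members included, while 1213 genes and 2 members (HMGCS1 and MSMO1, both higher in OCSC) had an unadjusted p under 0.05, against 4.66% of all genes higher and 3.11% lower at that p. DESeq2 called 246 genes and limma-voom 12, of which 0 were members with either tool. The members' median in this fit was 0.30, against 0.02 over all genes, and 26 of the 30 were positive, against 52.3% of all genes. Without the population block the median was 0.14. Without OVCAR3-CTR the median was 0.01, without OVCAR3-MGPKO 0.13, without COV318-CTR 0.53 and without COV318-MGP 0.44. With a culture effect of its own for each line, 52 genes passed in OVCAR3 (0.275% of all genes higher and 0.0576% lower in OCSC) and 0 of them were members. TM7SF2 came closest with a log2FC of 1.60 ± 0.27 (SE) and an adjusted p of 0.0669 in edgeR, and 16 of the 30 had an unadjusted p under 0.05, all higher in OCSC, against 7.02% of all genes higher and 4.8% lower. In COV318, 0 genes passed in edgeR, with 851 at an unadjusted p under 0.05 (2.95% of all genes higher and 2.5% lower) and DHCR7, lower in OCSC, among the members.

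The difference in culture effect between the OVCAR3 and the COV318 populations was tested as the line-by-culture term. It was negative, that is lower in COV318, for 29 of the 30 genes, against 53% of all genes, with a median of -1.08 against -0.05 over all genes. In edgeR 14 of the 30 had an unadjusted p under 0.05, all negative, against 4.8% of all genes negative and 3.7% positive, and 0 passed after adjustment, where 0.0128% of all genes, 2 in number, were called lower. The smallest adjusted p among the members was that of TM7SF2, 0.237, for a difference of -2.08 ± 0.37 (SE). DESeq2, run on the same counts, called 183 genes, among them TM7SF2 (adjusted p = 0.00237), DHCR7 (0.0334) and LSS (0.0391), and limma-voom called 0 genes. Each line had only 2 pairs of libraries, 1 of them labelled as MGP-manipulated, and the p-values measure the spread among these pairs. Passage and serum medium also differed between the lines, so the part of the line itself in this term cannot be told apart from theirs.

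Of the regulators, SREBF2 was higher in OCSC in both OVCAR3 populations and SREBF1 was not. SREBF2, which encodes SREBP2, had 2065 normalized counts in OVCAR3-CTR bulk, 2373 in OVCAR3-MGPKO bulk, 2908 in COV318-CTR bulk and 2312 in COV318-MGP bulk. In OCSC it had 4056, 3527, 2192 and 4289 in the same order. It was thus higher in OCSC in 3 of the 4 populations and lower in COV318-CTR (log2FC of -0.41), and its promoter is the only one of the 26 with the strict element.

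SREBF1, which encodes SREBP1, had 6239 and 4693 normalized counts in OVCAR3-CTR and OVCAR3-MGPKO bulk and 6946 and 4233 in OCSC. In COV318-CTR and COV318-MGP it had 501 and 266 in bulk and 198 and 351 in OCSC. All 4 OVCAR3 libraries lay above all 4 COV318 libraries, as they did for FASN and for 19.3% of all genes. Between OCSC and bulk SREBF1 differed little in OVCAR3 (log2FC of 0.15 and -0.15), and it was lower in COV318-CTR OCSC (-1.34) and higher in COV318-MGP OCSC (0.40).

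INSIG1, which retains SREBPs in the endoplasmic reticulum and is itself an SREBP target, had 631 and 1079 normalized counts in OVCAR3-CTR and OVCAR3-MGPKO bulk and 2180 and 1966 in OCSC. In COV318-CTR and COV318-MGP it had 4350 and 7413 in bulk and 2715 and 9597 in OCSC. All COV318 libraries lay above all OVCAR3 libraries, and OCSC lay above bulk in every population but COV318-CTR. STARD4, a carrier of cholesterol between membranes, had 413 and 994 normalized counts in OVCAR3-CTR and OVCAR3-MGPKO bulk and 984 and 1412 in OCSC. The COV318-CTR libraries had 6533 in bulk and 2284 in OCSC, and those of COV318-MGP 1709 and 2517. Its log2FC in OCSC was 1.25 and 0.51 in the OVCAR3 populations, -1.52 in COV318-CTR and 0.56 in COV318-MGP.

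**Figure D2:**
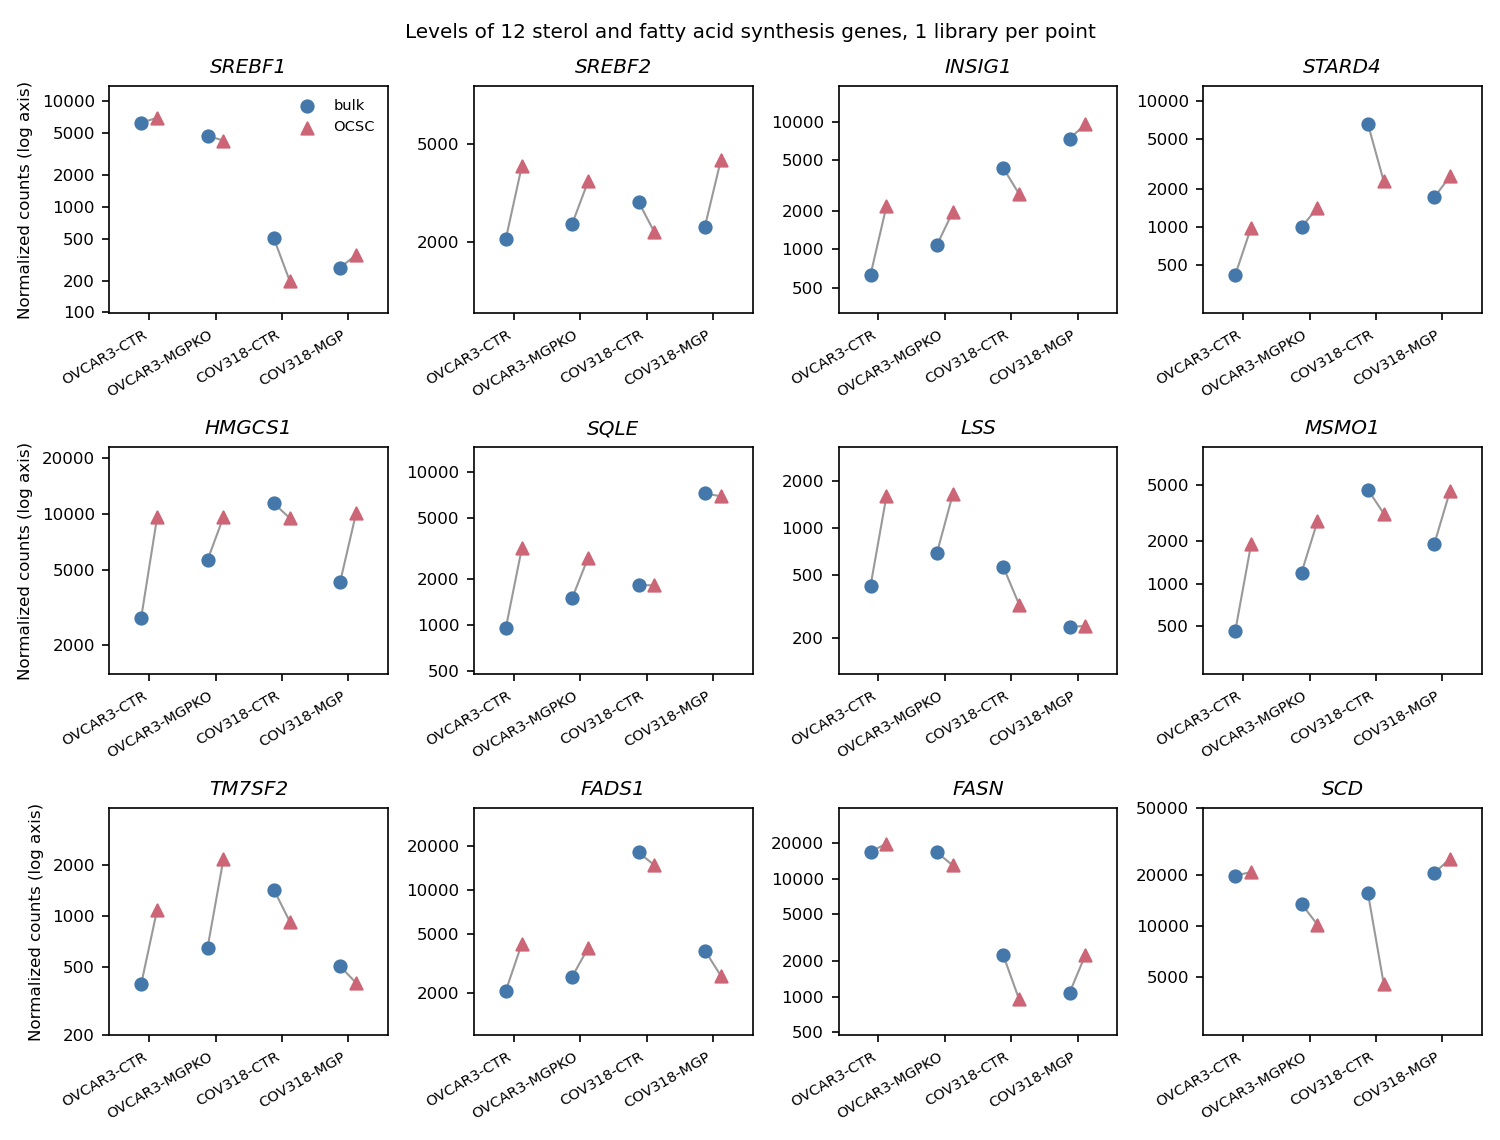
Normalized counts (log axis) of 12 of the genes in each population, with circles for bulk and triangles for OCSC, 1 library per point. In OVCAR3 the triangles of HMGCS1, SQLE, LSS, MSMO1 and TM7SF2 lie above both circles, whereas in COV318-CTR the triangles of STARD4, FASN and SCD lie below theirs.

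The 3 genes that supply or join acetyl-CoA differed among themselves. ACLY, which makes cytosolic acetyl-CoA from citrate, had a log2FC in OCSC of 1.04 in OVCAR3-CTR, 0.05 in OVCAR3-MGPKO, -0.91 in COV318-CTR and -0.02 in COV318-MGP. ACAT2, which joins acetyl-CoA units to acetoacetyl-CoA, had 2.02, 0.65, -0.51 and -0.29, from 510 normalized counts in OVCAR3-CTR bulk to 2072 in its OCSC. ACSS2, which makes acetyl-CoA from acetate, was the only member of the 30 lower in OVCAR3-CTR OCSC (-0.45), and its log2FC was 0.96 in OVCAR3-MGPKO, 0.77 in COV318-CTR and -0.12 in COV318-MGP. It had 1342 normalized counts in COV318-CTR bulk and 2294 in its OCSC, and 732 and 673 in COV318-MGP.

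All 6 genes of the mevalonate pathway, which builds farnesyl diphosphate, were higher in OCSC in both OVCAR3 populations, with medians of 1.43 in OVCAR3-CTR and 0.71 in OVCAR3-MGPKO. HMGCS1, the HMG-CoA synthase of the cytosol, had 2799 and 5688 normalized counts in OVCAR3-CTR and OVCAR3-MGPKO bulk and 9610 and 9642 in OCSC. COV318-CTR bulk had 11409 and its OCSC 9505, and COV318-MGP bulk had 4364 and its OCSC 10142. The 4 OCSC libraries thus lay within 9505 to 10142, while the bulk libraries ranged from 2799 to 11409. The log2FC was 1.78, 0.76, -0.26 and 1.22 in the same population order.

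MVK, the mevalonate kinase, had a log2FC of 1.47 and 0.77 in OVCAR3-CTR and OVCAR3-MGPKO and of -0.39 and -0.30 in COV318-CTR and COV318-MGP. IDI1, the isopentenyl diphosphate isomerase, had 1.39 and 0.66 against -0.50 and -0.47, and FDPS, the farnesyl diphosphate synthase, 0.94 and 0.49 against -0.37 and -0.34. In these 3 genes OCSC were higher than bulk in both OVCAR3 populations and lower in both COV318 populations. MVD, the mevalonate diphosphate decarboxylase, had 1.51 and 0.38 in OVCAR3 but -0.98 in COV318-CTR and 0.90 in COV318-MGP. PMVK, the phosphomevalonate kinase, had 0.48, 0.76, 0.17 and -0.45.

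The 3 enzymes from farnesyl diphosphate to lanosterol were likewise higher in OVCAR3 OCSC. SQLE, the squalene epoxidase, had 961 and 1503 normalized counts in OVCAR3-CTR and OVCAR3-MGPKO bulk and 3163 and 2757 in OCSC. The values of COV318-CTR were 1829 in bulk and 1816 in OCSC, and those of COV318-MGP 7256 and 6913. Culture thus separated the OVCAR3 libraries, while in COV318 the 2 populations stood apart and the culture difference of SQLE was -0.01 and -0.07.

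LSS, the lanosterol synthase, had 429 and 692 normalized counts in OVCAR3 bulk and 1599 and 1639 in OCSC. Levels of COV318-CTR were 567 in bulk and 325 in OCSC, and those of COV318-MGP 235 and 238. It was at least 1 higher in OCSC in both OVCAR3 populations (1.90 and 1.24), as were TM7SF2, MSMO1 and 3.61% of all genes. FDFT1, the squalene synthase, had a log2FC of 1.16, 0.52, -0.30 and 0.56 in the order OVCAR3-CTR, OVCAR3-MGPKO, COV318-CTR and COV318-MGP.

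All 8 enzymes from lanosterol to cholesterol were higher in OCSC in both OVCAR3 populations, with medians of 1.07 and 0.74. MSMO1, the sterol methyl oxidase, had the largest log2FC of the 30 in OVCAR3-CTR, 2.04, with 461 normalized counts in bulk and 1901 in OCSC. In OVCAR3-MGPKO it had 1197 and 2753, in COV318-CTR 4603 and 3119, and in COV318-MGP 1902 and 4535. OCSC were higher than bulk in every population except COV318-CTR (-0.56).

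TM7SF2, a sterol reductase, had 398 and 652 normalized counts in OVCAR3-CTR and OVCAR3-MGPKO bulk and 1091 and 2179 in OCSC. The COV318-CTR libraries had 1434 in bulk and 929 in OCSC, and those of COV318-MGP 505 and 404. The log2FC of 1.45 and 1.74 in OVCAR3 stood against -0.63 and -0.32 in COV318. DHCR7, which reduces 7-dehydrocholesterol to cholesterol, had 1.51 and 0.71 in OVCAR3 against -1.04 and -0.48 in COV318, with 808 normalized counts in OVCAR3-CTR bulk and 5399 in COV318-CTR bulk.

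CYP51A1, the lanosterol demethylase, had a log2FC of 1.11 and 0.92 in OVCAR3 and of -0.07 and -0.62 in COV318. EBP, the sterol isomerase, had 1.02 and 0.58 against -0.28 and -0.31. SC5D, the sterol desaturase, had 0.66 and 0.44 against -0.34 and -0.24. These 3 and HSD17B7, a ketosteroid reductase (1.02 and 0.77 against -0.24 and -0.15), therefore had opposite signs in the lines in both populations, and NSDHL, a sterol dehydrogenase, had 0.76 and 0.27 against 0.09 and -0.94. For HSD17B7 in COV318-MGP the interval for counting error included 0.

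The 6 genes of fatty acid synthesis and desaturation are given apart from the sterol genes, and the difference between the groups was not tested. Of the 24 other genes 23 were higher in OCSC in OVCAR3-CTR and 23 in OVCAR3-MGPKO, against 52.9% and 52.5% of all genes, whereas of these 6 all were higher in OVCAR3-CTR and 2 (FADS1 and FADS2) in OVCAR3-MGPKO, with medians of 0.64 and -0.36. FASN, the fatty acid synthase, had 16857 and 16652 normalized counts in OVCAR3-CTR and OVCAR3-MGPKO bulk and 19742 and 12919 in OCSC. COV318-CTR bulk had 2252 and its OCSC 951, and COV318-MGP bulk had 1083 and its OCSC 2272. Between OCSC and bulk it was 0.23 and -0.37 in OVCAR3, -1.24 in COV318-CTR and 1.07 in COV318-MGP.

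SCD, the desaturase that makes oleate, had 19939 and 13540 normalized counts in OVCAR3-CTR and OVCAR3-MGPKO bulk and 20953 and 10196 in OCSC. The values of COV318-CTR were 15756 in bulk and 4506 in OCSC, and those of COV318-MGP 20687 and 25171. The COV318-CTR OCSC library was the lowest of the 8, and its log2FC of -1.81 was the largest in size among the 30 in that population. FADS2, a desaturase of polyunsaturated fatty acids, had 1420 and 3692 normalized counts in OVCAR3-CTR and OVCAR3-MGPKO bulk and 5760 and 5254 in OCSC. Levels of COV318-CTR were 1522 in bulk and 661 in OCSC, and those of COV318-MGP 670 and 697. FADS2 was thus higher in both OVCAR3 OCSC libraries than in the other 6. FADS1, the desaturase that acts after FADS2 and overlaps it on the opposite strand, had 2069 and 2579 normalized counts in OVCAR3-CTR and OVCAR3-MGPKO bulk and 4310 and 4033 in OCSC. Its culture difference as log2FC was 1.06 and 0.65 in OVCAR3 and -0.29 and -0.57 in COV318.

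ELOVL6, an elongase of saturated fatty acids, had 313 and 1405 normalized counts in OVCAR3-CTR and OVCAR3-MGPKO bulk and 655 and 1095 in OCSC. The COV318-CTR libraries had 637 in bulk and 969 in OCSC, and those of COV318-MGP 740 and 729. Its culture difference was positive in OVCAR3-CTR (1.06) and COV318-CTR (0.61) and at or below 0 in both MGP-manipulated populations (-0.36 and -0.02). ACACA, the acetyl-CoA carboxylase, was the lowest of the 30 per kilobase of transcript, and 98.9% of its reference transcript matches alternate contigs of hg38 at 98% identity or more. Its 37.2 to 97.3 normalized counts are therefore uncertain, as are those of LSS, for which this share is 87.7%, and of HSD17B7, of which 81.7% matches another locus. Of CYP51A1 70.8% of exon bases are shared with overlapping annotations, which it has on both strands. Of EBP 36.4% are shared with a same-strand annotation and of ACAT2 22.2% with genes on the opposite strand. The reads of CYP51A1, EBP and ACAT2 may therefore be divided.

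**Figure D3:**
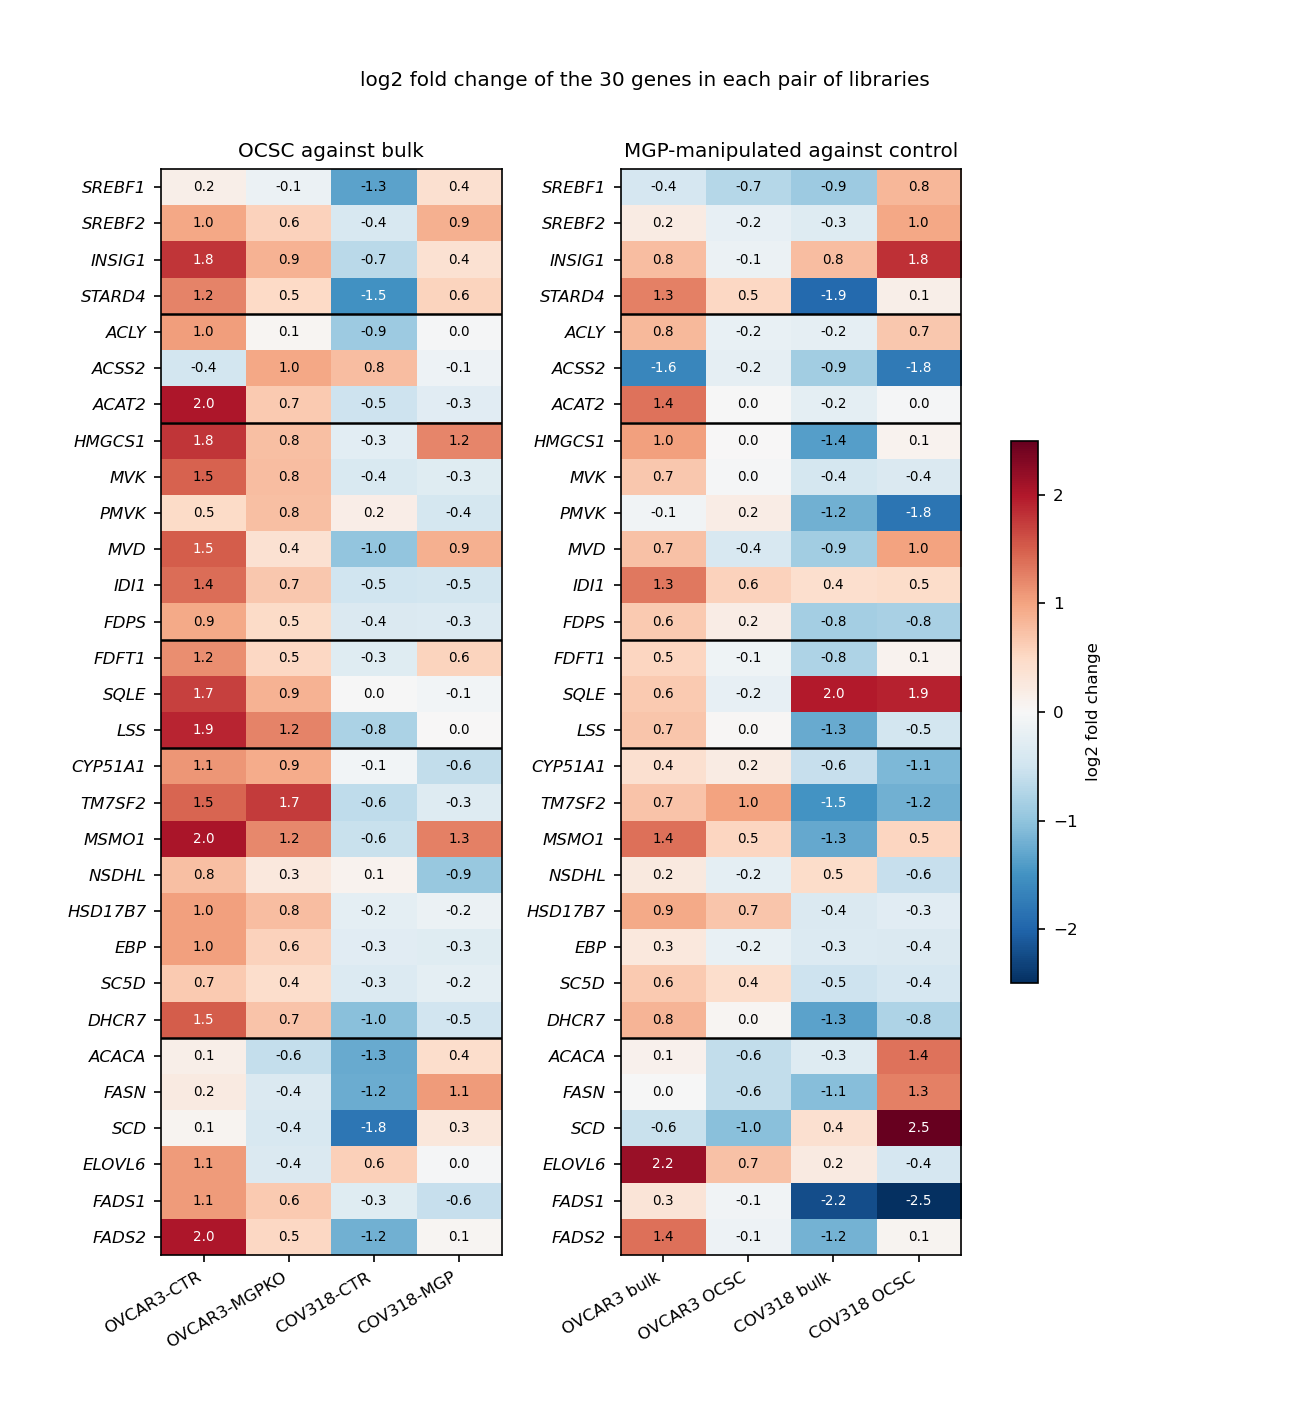
Heat map of the log2FC of the 30 genes (rows, with lines between roles) in the 4 OCSC-bulk pairs and the 4 pairs of MGP-manipulated and control libraries, 1 pair per column. The OVCAR3-CTR column of OCSC against bulk is positive in 29 of 30 rows, against 52.9% of all genes, and the COV318-CTR column negative in 26, against 51.9%.

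Compared per kilobase of the reference transcript, FDPS had the highest median of the 30 over the 8 libraries, 4607 normalized counts per kilobase, followed by SCD (3403) and HMGCS1 (1786). SCD was above FDPS in OVCAR3-CTR bulk (3802 against 2642) and in COV318-MGP bulk (3944 against 3862) and OCSC (4799 against 3051). As a ratio of the highest to the lowest library, SREBF1 varied most, by 35.1-fold from 40.3 to 1417. By the same ratio NSDHL and SREBF2 varied least, by 2.00-fold and 2.08-fold. Between the lines, 9 genes (INSIG1, STARD4, ACLY, ACAT2, IDI1, FDFT1, CYP51A1, HSD17B7 and SC5D) were higher in all 4 COV318 than in all 4 OVCAR3 libraries, against 15.9% of all genes. The summed level of the 24 genes other than the 6 fatty acid genes was 32107 and 41344 normalized counts in OVCAR3-CTR and OVCAR3-MGPKO bulk and 63357 and 62982 in OCSC. In COV318-CTR the sum was 92262 in bulk and 67520 in OCSC, and in COV318-MGP 68535 and 73372. The bulk libraries thus spanned 32107 to 92262 and the OCSC libraries 62982 to 73372. For the 6 fatty acid genes the OCSC libraries spanned the wider range, 21824 to 51499, against 27127 to 40670 in bulk. The lines also differed in passage and, in bulk, in basal medium, serum percentage and insulin. The part of these in the level differences between the lines was not tested.

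Libraries labelled as MGP-manipulated were then compared with their controls within each culture. MGP mRNA was under the floor of 3 counts in all 4 OVCAR3 libraries. The OVCAR3 pairs therefore cannot show whether these genes move with MGP mRNA. The COV318 pairs also differ in the epithelial markers given above, which cannot be told apart from MGP. In OVCAR3 bulk the median log2FC of the 30 genes in the library labelled OVCAR3-MGPKO was 0.66, against 0.00 over all genes, with 7 at least 1 higher (background 11.8%) and ACSS2 at least 1 lower (7.72%). In OVCAR3 OCSC the median was -0.06 (0.06 with CPM), against -0.02, with 0 at least 1 higher (6.46%) and SCD at least 1 lower (4.39%). TM7SF2 was at least 1 higher there with TMM, CPM or within-pair scaling, and SCD was not at least 1 lower with CPM. In COV318 bulk the median in COV318-MGP was -0.68, against -0.03, with SQLE at least 1 higher (20.1%) and 10 at least 1 lower (22.1%). With CPM this median was -0.38, with 2 genes higher and 5 lower. In COV318 OCSC the median was 0.03 (-0.03 with CPM), against 0, with 5 higher (23.5%) and 5 lower (23.8%). OVCAR3-CTR bulk and COV318-CTR bulk are also the base of the OCSC comparisons of their populations, so these values are not independent of those above.

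In OVCAR3, ELOVL6 differed most in bulk, by 2.16 (95% interval 1.95 to 2.39 from counting error alone), and its OCSC difference was 0.74. ACSS2 had 4526 normalized counts in OVCAR3-CTR bulk and 1458 in OVCAR3-MGPKO bulk, a log2FC of -1.63, but 3313 and 2840 in OCSC, a log2FC of -0.22. FADS2 differed by 1.38 in bulk and -0.13 in OCSC. In OCSC, SCD differed by -1.04, TM7SF2 by 0.997 and ELOVL6 by 0.74. At least 1 in size in both cultures and with the same sign were 0 of the 30, against 2.75% of all genes higher and 1.31% lower. The knockout cells were isolated as clones, which clone of either arm was sequenced is not given in the sources used here, and the edit cannot be told apart from a difference between clones.

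In COV318, 4 genes were past 1 in the same direction in both cultures. SQLE was higher in COV318-MGP by 1.99 in bulk and 1.93 in OCSC, against 14.1% of all genes higher in both. FADS1 had 18011 normalized counts in COV318-CTR bulk and 14700 in COV318-CTR OCSC, and 3876 and 2614 in COV318-MGP, a log2FC of -2.22 and -2.49. TM7SF2 (-1.50 and -1.20) and PMVK (-1.21 and -1.83) were also lower in both, against 15.3% of all genes. With CPM, INSIG1 was also at least 1 higher in both cultures and PMVK was no longer at least 1 lower in both.

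Other genes differed more in 1 culture than in the other, which was not tested. STARD4 was lower in COV318-MGP bulk (-1.93) and near its control in OCSC (0.14). SCD was higher in COV318-MGP OCSC by 2.48 and in bulk by 0.39, and FASN was lower in bulk (-1.06) and higher in OCSC (1.26). INSIG1 was higher by 0.77 in bulk and 1.82 in OCSC, and the difference of ACSS2 was -0.87 and -1.77. The epithelial markers given above differ between the same libraries. Their part in these values was not tested.

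**Figure D4:**
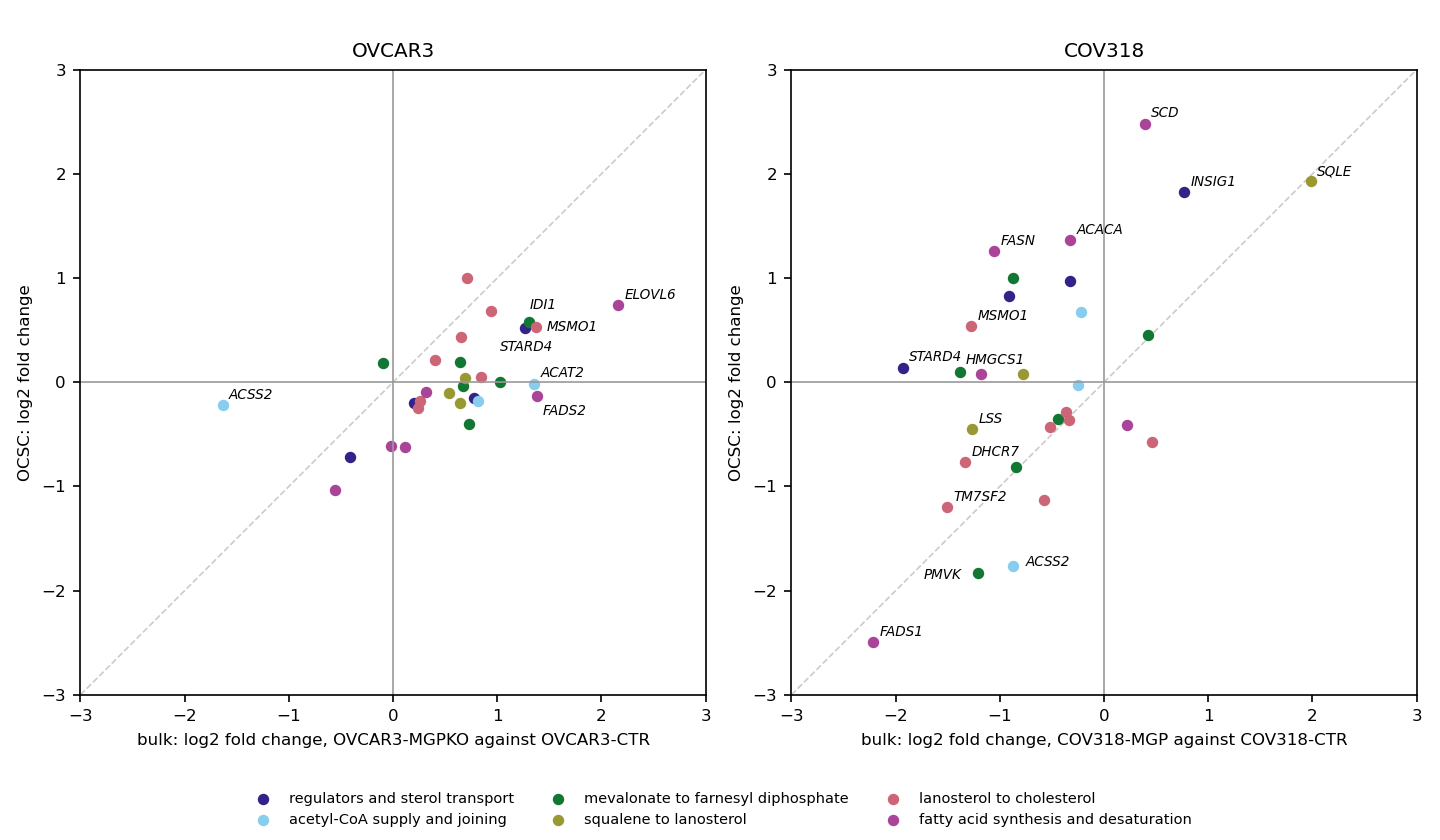
Each point is 1 of the 30 genes, coloured by role, with the log2FC of the MGP-manipulated against the control library in bulk on the x axis and in OCSC on the y axis; the dashed line marks equal values. In COV318, SQLE (1.99 and 1.93) and FADS1 (-2.22 and -2.49) lie near the line, and SCD (0.39 and 2.48) lies above it.

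Other genes of the pathway were taken from 5 lists. In the edgeR fit over the 4 populations, 0 of their genes passed after adjustment, and 4 of the 61 tested had an unadjusted p under 0.05, where 4.66% of all genes were higher and 3.11% lower at that p. The 8 genes of SREBP processing, such as SCAP, had medians in OCSC of 0.06 in OVCAR3-CTR, 0.20 in OVCAR3-MGPKO, -0.32 in COV318-CTR and 0.06 in COV318-MGP. None of the 8 was past 1 in size in these pairs. In the same order, the medians of the 11 genes of sterol uptake and transport, such as NPC1, were 0.65, 0.06, -0.24 and 0.22, with 5 at least 1 higher in OVCAR3-CTR (12.5% of all genes) and VLDLR, a lipoprotein receptor, at least 1 lower (11.4%).

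For 22 other genes of fatty acid and triglyceride synthesis the medians were 0.48, 0.14, -0.26 and -0.19 in the same order. Among them SLC25A1, the citrate carrier of mitochondria, chosen here after its values were seen, had 1032 normalized counts in OVCAR3-CTR bulk and 12319 in its OCSC, a log2FC of 3.58. Its log2FC was 1.33 in OVCAR3-MGPKO, -0.69 in COV318-CTR and 0.79 in COV318-MGP. The 14 genes of fatty acid oxidation had 0.46, 0.34, 0.24 and -0.17, and the 6 tested genes of sterol efflux and LXR 0.16, 0.19, -0.38 and -0.02. The medians of all 5 lists in OVCAR3-CTR, 0.06 to 0.65, were below the 1.09 of the 30 genes, a difference that was not tested.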

How the data were processed

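RNA-seq of 8 libraries (2 lines, 4 populations, bulk and OCSC) was analysed, 1 library per condition. Paired-end reads had been mapped by the authors to hg38 (STAR 2.7.5c in the submitters' processing notes), and the deposited table holds each gene's raw count. A second deposited value is a signal, namely this count over DESeq2's median-of-ratios size factor. The annotation, the library kit among those named and whether counting used strand are not given in the sources used here.

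Size factors were recomputed over the 15518 genes above 0 in every library, and the normalized counts differed from the deposited values by a relative 7.55e-10 at most. Log2FC used a pseudocount of 1, and its 95% intervals are exact Clopper-Pearson intervals for counting error only. Pairs of single libraries were not tested. Culture was fitted with edgeR 4.0.16 (glmQLFit, glmQLFTest; R 4.3.3) on genes with at least 10 counts in at least 4 libraries, with population as a block, 3 residual degrees of freedom and Benjamini-Hochberg adjustment over all genes tested. The line-by-culture fit left 2. Nothing in the labels says whether the 4 populations were cultured independently, so p-values measure only the spread between these libraries. The depth of 12294591 to 37393919 counts puts the floor of 3 counts at 0.0802 to 0.244 CPM.

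The 30 genes and the pathway lists were chosen with earlier results of these data known. By rule, values are given in every library for members called in the culture fit and for the 3 members with the largest log2FC in each MGP pair among those with at least 50 normalized counts. The other members given in every library (SREBF1, SREBF2, INSIG1, HMGCS1, LSS, MSMO1 and FASN) were chosen for their roles after their values were seen. Positions and overlaps come from GENCODE on hg38, transcript copies from BLAST 2.17.0 (98% identity, at least 50 bases) and promoters from RefSeq. Alternatives were TMM, CPM, within-pair scaling, pseudocounts of 0.5 and 5, no filter, a minimum of 50 counts, the deposited values, no population block, DESeq2 1.42.0, limma 3.58.1 (voom), and leaving out each population. The fits were run on simulated counts to check the code, with the same dispersion for all genes and the same effect size for all changed genes. This does not show their power in these data. Other computations used scipy 1.17.1, pandas 2.3.3 and numpy 2.4.6 in Python 3.11.15, and figures matplotlib 3.10.9. Some genes of the pathway are not reported here.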

Additional observations from a re-analysis of the deposited data

Results flagged for a closer look

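Several of the 30 genes were at least 1 higher in log2FC in one pair of libraries and at least 1 lower in a matching pair. Each value comes from 1 library per condition, and the differences between these single pairs were not tested. Between OCSC and bulk, STARD4 was 1.25 in OVCAR3-CTR and -1.52 in COV318-CTR, DHCR7 was 1.51 and -1.04, and FADS2 was 2.02 and -1.20. FASN was -1.24 in COV318-CTR and 1.07 in COV318-MGP. In the comparison of COV318-MGP with COV318-CTR, which uses the same 4 libraries, FASN was -1.06 in bulk and 1.26 in OCSC. The line-by-culture term, over both populations of each line, was -1.35 for STARD4, -1.87 for DHCR7 and -1.84 for FADS2. None of these passed after adjustment in edgeR, whereas DESeq2 called DHCR7 (adjusted p = 0.033).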

How the results depend on the processing

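No member was called over the 4 populations under any alternative run. The members' median changed sign with CPM for MGP-manipulated against control in OVCAR3 OCSC (-0.06 to 0.06) and COV318 OCSC (0.03 to -0.03), both near 0. Between OCSC and bulk over the 4 populations, DESeq2 called 246 of all genes and limma-voom 12, against 0 in the main fit. Members called as differing between the lines were 3 with DESeq2, against 0. Leaving out each population in turn gave a members' median of 0.01 to 0.53 in the culture fit and 0 calls, and without the population block the median was 0.14, against 0.30. The cause of the following moves was not tested. With CPM, the members' median in OCSC against bulk was -0.31 in COV318-CTR and -0.26 in COV318-MGP, and it was -0.16 in COV318-MGP with TMM. The count of members at least 1 lower in COV318-MGP was 1 with TMM and 1 with CPM, against 0. For MGP-manipulated against control in OVCAR3 OCSC, the median was 0.0604 with CPM, at least 1 higher were 1 with TMM, 1 with CPM and 1 with within-pair scaling, and at least 1 lower were 0 with CPM. In COV318 bulk the median was -0.57 with TMM and -0.38 with CPM, with 2 higher and 5 lower with CPM. CPM shifted the median of all genes by 0.28 in that pair, by 0.14 and 0.12 in the OVCAR3 MGP pairs, and by 0.13 and -0.18 in the COV318-CTR and COV318-MGP culture pairs, and the members' median relative to all genes with CPM was -0.64, 0.66, -0.04, -0.41 and -0.07. The culture fit pairs OCSC and bulk within each population, and no block by replicate number was run because the labels give no replicate numbers. Each condition had 1 library, and intervals from counts cover counting error only.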
